A study of Homo sapiens with 12 samples.

Results

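Desmosomal cadherins and their plaque partners were followed as 10 genes, DSG1, DSG2, DSG3, DSC1, DSC2, DSC3, PKP1, PKP2, PKP3 and DSP. They were taken by symbol from a gene table of 61044 IDs, in which each of the 10 matched 1 ID. All RNA is labelled as from SCC-15, a long-established human cell line grown from a squamous carcinoma of the mouth. The NC group carried a negative-control short hairpin RNA, and the groups shRNA1, shRNA2 and shRNA3 each carried a different hairpin that targets FMOD, which encodes the matrix proteoglycan fibromodulin. All 4 groups were harvested at 48 h and had 3 libraries each, 12 in all. The question was how expression differs once FMOD is silenced. The labels do not say whether the libraries of a group came from separate cultures, so the p-values measure the spread between these libraries, which may be technical.

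Desmosomes are spot-like junctions that tie the intermediate filaments of neighbouring epithelial cells to each other. Desmogleins (DSG) and desmocollins (DSC) are calcium-dependent cadherins that bind across the gap between cells. Inside the cell their tails bind plakoglobin and plakophilins (PKP), which bind desmoplakin (DSP), and desmoplakin holds the keratin filaments. In stratified epithelium DSG3 and DSC3 belong to the lower layers and DSG1 and DSC1 to the upper ones, whereas DSG2 and DSC2 are also found in simple epithelium.

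The sequences just upstream of 5 of these genes are shown because they belong to the members that fell with every hairpin (DSC3 and PKP1), to one that rose with every hairpin (DSP), and to a pair of desmogleins of 1 gene cluster with a stretch in common (DSG1 and DSG3). They are RefSeq promoter windows on GRCh38.p14, written 5′ to 3′ on the gene's strand and cut where the first exon of the gene begins in RefSeq or in GENCODE release 29, whichever comes first. DSC3 covers chr18:31042816-31042992 on the minus strand, PKP1 chr1:201283256-201283451 on the plus strand, and DSP chr6:7541421-7541574 on the plus strand. DSG1 covers chr18:31317910-31318088 on the plus strand and DSG3 chr18:31447491-31447740 on the plus strand. Capitals in DSP mark an E-box, CAGGTG or its reverse complement CACCTG, the element bound by zinc-finger repressors of epithelial junction genes such as SNAI1 and ZEB1. Capitals in DSG1 and DSG3 mark the run of 20 bases that they share.
DSC3: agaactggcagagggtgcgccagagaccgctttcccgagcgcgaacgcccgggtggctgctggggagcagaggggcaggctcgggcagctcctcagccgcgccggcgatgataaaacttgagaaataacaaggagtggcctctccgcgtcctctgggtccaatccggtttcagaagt
PKP1: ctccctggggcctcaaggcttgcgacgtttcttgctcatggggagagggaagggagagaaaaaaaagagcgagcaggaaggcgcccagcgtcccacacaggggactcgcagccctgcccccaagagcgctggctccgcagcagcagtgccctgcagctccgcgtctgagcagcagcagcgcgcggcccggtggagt
DSP: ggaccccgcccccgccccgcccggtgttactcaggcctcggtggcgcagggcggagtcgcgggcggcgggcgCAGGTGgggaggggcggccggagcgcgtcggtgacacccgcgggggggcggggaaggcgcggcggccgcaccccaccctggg
DSG1: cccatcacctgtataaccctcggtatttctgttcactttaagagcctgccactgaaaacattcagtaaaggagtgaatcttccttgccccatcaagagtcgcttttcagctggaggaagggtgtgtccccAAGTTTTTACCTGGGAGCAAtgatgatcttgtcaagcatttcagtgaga
DSG3: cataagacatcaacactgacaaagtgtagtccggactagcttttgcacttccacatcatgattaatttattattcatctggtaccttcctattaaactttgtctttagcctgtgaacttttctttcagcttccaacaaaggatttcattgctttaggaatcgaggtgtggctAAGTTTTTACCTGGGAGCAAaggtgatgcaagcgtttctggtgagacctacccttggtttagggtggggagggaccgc
Promoter entries were matched for 8 of the 10 members. Motifs were searched on both strands of the whole 250 bases before each RefSeq start, in which 17.5% of 35116 windows held the E-box. The DSP window held 2 E-boxes, which began 178 and 85 bases before the start, and the second lies in the part cut above. DSG2 also held 2, at 232 and 116 bases. DSC2 held 1, at 156 bases, in the first of its 2 entries, and DSG1 held 1, at 245 bases. The windows of DSC3, PKP1, DSG3 and DSC1 held no match to these letters.

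Of the other letters searched, GGGCGG (the GC box, present in 42.6% of windows) occurred 7 times in DSP, 2 times in DSG2, 1 time in PKP1, 1 and 2 times in the 2 entries of DSC2, and at no place in DSC3, DSG1, DSG3 or DSC1. The grainyhead element AACCNGTT (1.49% of windows), the AP-1 element TGANTCA (6.57%) and TATAAA (10.7%) had no match in any member's window. The GC content was 78% in DSP, 75.2% in DSG2, 67.6% in PKP1 and 60.4% in DSC3, against 48% in DSG1 and 42.8% in DSG3 and a median of 58% over all windows. The run shared by DSG1 and DSG3 began 120 and 78 bases before their starts, and no window other than these 2 held it. These matches describe letters and not bound sites.

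Before the results, the libraries were checked against their labels. FMOD itself was near the limit of detection, with 2, 2 and 3 counts in the NC libraries and 0 counts in all 9 shRNA libraries. All are at or under 3 counts, the most that a library with 0 could still hide, so no fold was computed. Library totals ranged from 17286934 to 19567192 counts, and 3 counts correspond to 0.153 to 0.174 CPM, that is counts scaled to a common library size, when the plain total is used. The NC libraries stood apart from the rest: the correlation of log2 expression was 0.773 to 0.795 between NC and shRNA libraries, 0.897 to 0.981 between libraries of different shRNAs and 0.987 within NC. Within shRNA3, libraries 1 and 2 correlated at 0.987 with each other but at 0.911 and 0.908 with library 3, so shRNA3 results are also given without libraries 1 and 2, or without library 3, where that changes them. Silencing of FMOD cannot be told apart from anything else that the 3 hairpin groups share and NC lacks, and whether the NC and hairpin cultures held the same cells was not tested. This limit holds for every fold against NC below. Of 6 epithelial markers (KRT5, KRT14, TP63, EPCAM, CDH1 and SFN), all were above 3 counts in every group, and their summed level was 1975 to 2127 CPM in NC, 769 to 834 with shRNA1, 789 to 816 with shRNA2 and 771 to 1545 with shRNA3. KRT5 and CDH1 fell with all 3 shRNAs, and KRT14 rose with all 3 (log2 changes 2.87, 1.69 and 4.30). With library 3 alone standing for shRNA3, the KRT14 change was 1.76. TP63 fell with shRNA2 (-0.99) and shRNA3 (-1.03), EPCAM rose with shRNA2 (0.53) and shRNA3 (0.92), and SFN was called with none. The shRNA2 calls of KRT14 and EPCAM held in 14 and 13 of 19 alternative analyses. The sum thus does not describe each marker.

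Levels below are CPM scaled by TMM, edgeR's correction for library composition, and changes are log2 fold changes from edgeR's quasi-likelihood test, called at a Benjamini-Hochberg adjusted p under 0.05 over 17532 tested genes. In total RNA of a culture, fewer cells of a type and less RNA per cell cannot be told apart. Of the 10 members, 8 passed the filter on low counts and were tested, and DSG1 and DSC1 were not. With shRNA1, 4 of the 8 changed (2 up, 2 down), where 57.4% of all tested genes were called (26.8% higher, 30.6% lower). With shRNA2, 5 of 8 changed (3 up, 2 down) against 53% of all tested genes (24.6% higher, 28.4% lower). With shRNA3, 5 of 8 changed (3 up, 2 down) against 53.9% (26.4% higher, 27.6% lower). For the mean of the 3 shRNAs, 4 of 8 changed (2 up, 2 down) against 60% (27.9% higher, 32.2% lower). These shares lie near the background of each comparison. PKP3 and DSP rose with all 3 shRNAs (2 of 8 members, where 16% of tested genes rose with all 3), and DSC3 and PKP1 fell with all 3 (2 of 8, where 19.7% fell with all 3). DSC2 and PKP2 were called with none of the 3, as were 24.3% of tested genes. The median log2 change of the 8 members for the mean of the 3 shRNAs was 0.18, against -0.03 over all tested genes.

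**Figure D1:**
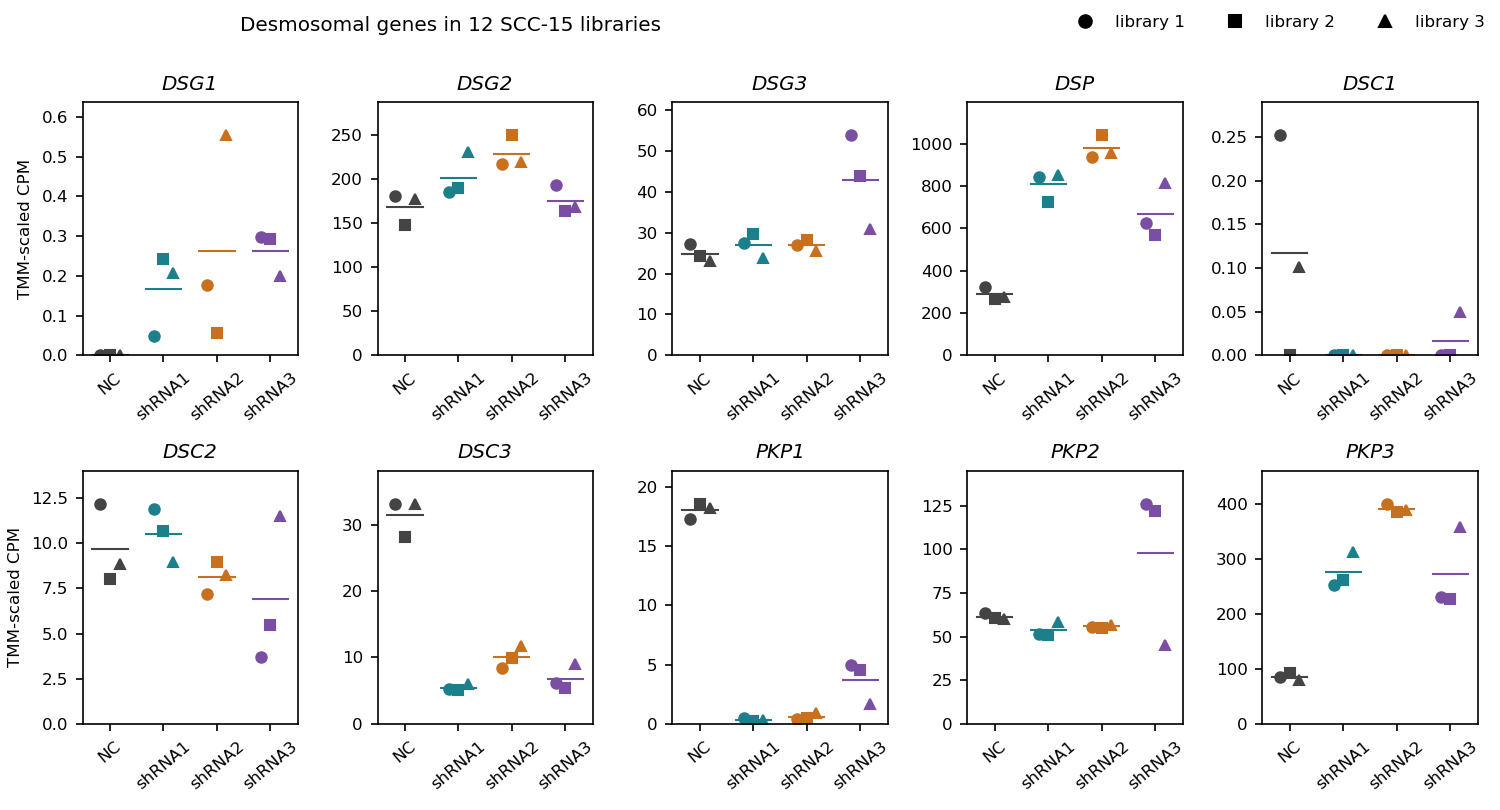
TMM-scaled CPM (vertical axes, linear and starting at 0, different for each gene) of the 10 desmosomal genes in the 12 libraries, by group. Points are libraries, with a marker shape for each replicate number, and lines are group means. PKP3 and DSP were above the NC range in all 9 shRNA libraries, DSC3 and PKP1 below it in all 9, and PKP2 was split within shRNA3.

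DSG2, the desmoglein found in all desmosome-bearing epithelia (ENSG00000046604, chr18:31498043-31549008, plus strand), was the most abundant cadherin of the set and moved little. It read 180.2, 147 and 177 CPM in the NC libraries, 185, 189 and 229.7 with shRNA1, 216, 249 and 219 with shRNA2, and 193, 163 and 168 with shRNA3. All 3 shRNA1 and all 3 shRNA2 libraries were above all 3 NC libraries, while shRNA3 and NC overlapped. The log2 change was 0.44 ± 0.14 (SE) with shRNA2 (adjusted p = 0.0192), 0.26 with shRNA1 (95% interval -0.04 to 0.57, adjusted p = 0.13) and 0.06 with shRNA3 (-0.25 to 0.36, adjusted p = 0.753). The shRNA2 call was lost without NC library 2 (log2 change 0.36, adjusted p = 0.0836), without shRNA2 library 2 (0.39, adjusted p = 0.0745) and with plain library totals in place of TMM (0.31, adjusted p = 0.104). DSG2-AS1, on the opposite strand of its last part, had at most 5 counts in any library.

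DSG3, the desmoglein of basal and lower layers (ENSG00000134757, chr18:31447795-31478702, plus strand), stayed near its NC level with 2 hairpins and was higher with shRNA3. It read 27.3, 24.3 and 23.0 CPM in NC, 27.4, 29.6 and 23.7 with shRNA1, 27.0, 28.1 and 25.5 with shRNA2, and 53.8, 43.8 and 31.0 with shRNA3. Every shRNA3 library lay above NC, the first 2 by far more than the third. DSG3 rose with shRNA3 by a log2 change of 0.78 ± 0.19 (SE), a 1.72-fold difference (adjusted p = 0.00515). With library 3 alone standing for shRNA3 it was 0.35 (adjusted p = 0.0812), and with plain library totals 0.41 (adjusted p = 0.0516). For shRNA1 and shRNA2 the log2 change was 0.11 in both (95% interval -0.31 to 0.54 in both).

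DSG1, the desmoglein of the upper layers (ENSG00000134760, chr18:31318089-31357029, plus strand), was at the limit of detection. It had 0 counts in all 3 NC libraries, 1, 5 and 4 counts with shRNA1, 3, 1 and 10 with shRNA2, and 4, 4 and 4 with shRNA3. All 9 shRNA libraries thus held at least 1 count, and 6 of the 9 held more than 3. Without the filter on low counts, edgeR's adjusted p was 0.0235, 0.0097 and 0.0107 for shRNA1, shRNA2 and shRNA3 against NC. In these comparisons that fit called 29.9%, 27.6% and 28.3% of 33435 genes. No fold is given at these counts. DSG1-AS1, which overlaps on the other strand, had at most 3 counts in a library.

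DSC3, the desmocollin of basal and lower layers (ENSG00000134762, chr18:30990008-31042815, minus strand), fell with every hairpin. It read 33.2, 28.1 and 33.2 CPM in NC, 5.17, 5.04 and 5.94 with shRNA1, 8.37, 9.98 and 11.8 with shRNA2, and 6.08, 5.32 and 8.99 with shRNA3. The highest shRNA library stayed far under the lowest NC library. DSC3 was 5.85-fold lower with shRNA1 (log2 change -2.55 ± 0.24, SE, adjusted p = 5.95e-06), 3.13-fold lower with shRNA2 (-1.65 ± 0.23, adjusted p = 0.000113) and 4.61-fold lower with shRNA3 (-2.21 ± 0.24, adjusted p = 1.66e-05). These 3 calls held in all 19 alternative analyses each. No annotated gene overlaps DSC3.

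DSC2, the widely expressed desmocollin (ENSG00000134755, chr18:31058840-31102522, minus strand), was not called with any hairpin. It read 12.2, 8.03 and 8.88 CPM in NC, 11.9, 10.7 and 8.98 with shRNA1, 7.20, 8.96 and 8.25 with shRNA2, and 3.71, 5.47 and 11.5 with shRNA3. The shRNA3 libraries disagreed, with 2 below every NC library and the third within the NC range. The log2 change was 0.12 (95% interval -0.66 to 0.90), -0.25 (-1.04 to 0.53) and -0.48 (-1.27 to 0.30) with shRNA1, shRNA2 and shRNA3. Without shRNA3 library 3 the last became -1.08 (adjusted p = 0.000991), and without libraries 1 and 2 it became 0.28 (adjusted p = 0.369). DSCAS, an antisense gene over its start, had at most 5 counts in a library.

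DSC1, the desmocollin of the upper layers (ENSG00000134765, chr18:31129236-31162856, minus strand), had 5, 0 and 2 counts in NC, 1 count in shRNA3 library 3 and 0 in the other 8 shRNA libraries. This is at or near the floor in every group and no fold is given. With no filter on low counts its adjusted p by edgeR was 0.108, 0.132 and 0.378 for the 3 shRNAs and 0.0353 for their mean. For the mean that fit called 34.5% of 33435 genes. DSCAS and AC012417.1 overlap it on the other strand.

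PKP1, the plakophilin of suprabasal keratinocytes that strengthens desmosomes (ENSG00000081277, chr1:201283452-201332993, plus strand), showed the widest change among the 8 tested members. It read 17.3, 18.6 and 18.2 CPM in NC, 0.497, 0.242 and 0.310 with shRNA1, 0.410, 0.507 and 0.886 with shRNA2, and 4.97, 4.52 and 1.64 with shRNA3. NC libraries lay within a narrow band and no shRNA library came near it. PKP1 was 50.6-fold lower with shRNA1 (log2 change -5.66 ± 0.49, SE, adjusted p = 3.78e-06), 29.6-fold lower with shRNA2 (-4.89 ± 0.47, adjusted p = 7.73e-06) and 4.89-fold lower with shRNA3 (-2.29 ± 0.40, adjusted p = 0.000606). The counts behind these values were 10, 5 and 6 with shRNA1 and 7, 9 and 16 with shRNA2, near the floor. The 95% intervals of the log2 change were -6.74 to -4.58 and -5.92 to -3.86 for these 2 hairpins, so their folds are rough. The change with shRNA3 ranged from -3.42 to -1.93 over 19 alternatives, all of them called.

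PKP2, the plakophilin of heart and of simple and basal epithelia (ENSG00000057294, chr12:32790745-32896840, minus strand), was near its NC level with shRNA1 and shRNA2 and split within shRNA3. It read 63.3, 60.5 and 60.3 CPM in NC, 51.4, 51.0 and 58.6 with shRNA1, and 55.7, 55.1 and 56.7 with shRNA2. With shRNA3 it read 126, 122 and 45.4. The shRNA1 and shRNA2 libraries were all slightly below NC, shRNA3 libraries 1 and 2 were far above it, and shRNA3 library 3 was the lowest of the 12. The log2 change was -0.19 (95% interval -0.83 to 0.44) with shRNA1, -0.14 (-0.77 to 0.50) with shRNA2 and 0.67 (0.04 to 1.30, adjusted p = 0.0695) with shRNA3. Without shRNA3 library 3 the shRNA3 value was 1.01 (adjusted p = 1.89e-07), and without libraries 1 and 2 it was -0.41 (adjusted p = 0.0182), so the direction with shRNA3 depends on the library. AC087588.1 and AC087588.2 overlap PKP2.

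PKP3, the plakophilin of most simple and stratified epithelia (ENSG00000184363, chr11:392614-404908, plus strand), rose with every hairpin. It read 85.3, 92.1 and 80.0 CPM in NC, 254, 262 and 314 with shRNA1, 402, 387 and 389 with shRNA2, and 231, 228 and 359 with shRNA3. All 9 shRNA libraries were above all NC libraries, with shRNA2 the highest and tightest. The rise was 3.23-fold with shRNA1 (log2 change 1.69 ± 0.18, SE, adjusted p = 1.75e-05), 4.58-fold with shRNA2 (2.19 ± 0.19, adjusted p = 3.13e-06) and 3.18-fold with shRNA3 (1.67 ± 0.18, adjusted p = 2.05e-05). PKP3 overlaps no annotated gene, and its calls held in all 19 alternatives.

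DSP, the linker between the plaque and keratin (ENSG00000096696, chr6:7541575-7586717, plus strand), rose with every hairpin as well. It read 325, 265 and 276 CPM in NC, 844, 726 and 855 with shRNA1, 939.7, 1041 and 957 with shRNA2, and 626, 570.5 and 814 with shRNA3. Groups did not overlap with NC, and within shRNA3 the third library was the highest, as for PKP3. The rise was 2.80-fold with shRNA1 (log2 change 1.48 ± 0.16, SE, adjusted p = 2.03e-05), 3.39-fold with shRNA2 (1.76 ± 0.17, adjusted p = 6.41e-06) and 2.32-fold with shRNA3 (1.21 ± 0.16, adjusted p = 9e-05). Its calls too held in all 19 alternatives.

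**Figure D2:**
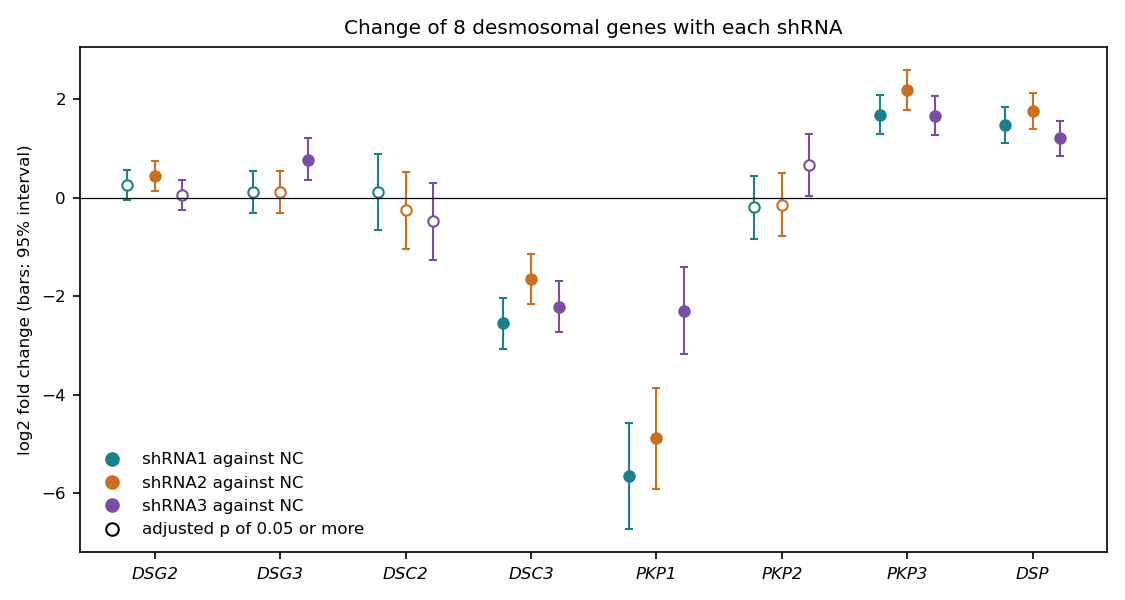
Log2 fold change against NC (vertical axis) of the 8 tested members with each shRNA, from edgeR's quasi-likelihood fit. Bars are 95% intervals and open points have an adjusted p of 0.05 or more. DSC3 and PKP1 lay below 0 and PKP3 and DSP above 0 with all 3 shRNAs, and the intervals of DSC2 included 0 with each.

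Over all 9 shRNA libraries against the 3 of NC, DSP and PKP3 did not overlap with NC on the high side (19% of tested genes did so) and DSC3 and PKP1 did not on the low side (25.8% did so). The other 4 tested members overlapped. In the mean over the 3 shRNAs, DSC3 changed by -2.13 ± 0.17 (SE), PKP1 by -4.28 ± 0.30, PKP3 by 1.85 ± 0.16 and DSP by 1.49 ± 0.14 on the log2 scale. DSG2 changed by 0.25 (95% interval 0.00 to 0.51, adjusted p = 0.078) and DSG3 by 0.34 (-0.02 to 0.69, adjusted p = 0.0906). All 3 comparisons with NC share the same NC libraries.

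The hairpins were also compared with each other, as 3 pairs. Between shRNA1 and shRNA2, 1 of 8 members differed (12.3% of tested genes did, 5.78% higher and 6.53% lower with shRNA1): DSC3 was lower with shRNA1 by a log2 difference of -0.90 ± 0.23 (SE, adjusted p = 0.0283). This call failed with plain library totals, with no filter and without any 1 of 7 libraries. Between shRNA1 and shRNA3, 3 of 8 differed (30% of tested genes did, 11.9% higher and 18.1% lower with shRNA1), and all were lower with shRNA1: PKP1 by -3.37 (adjusted p = 0.00265), DSG3 by -0.67 (adjusted p = 0.0263) and PKP2 by -0.86 (adjusted p = 0.0437). Between shRNA2 and shRNA3, 1 of 8 differed (8.34% of tested genes did, 1.91% higher and 6.43% lower with shRNA2): PKP1 was lower with shRNA2 by -2.60 ± 0.45 (SE, adjusted p = 0.0248). Of 19 alternatives each, the PKP1 difference was called in 18 for shRNA1 and in 9 for shRNA2, that of DSG3 in 10 and that of PKP2 in 4.

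These contrasts with shRNA3 rest on how its libraries are weighed. With library 3 alone standing for shRNA3, the differences from shRNA1 were -2.22 for PKP1 (adjusted p = 0.00744), -0.22 for DSG3 (adjusted p = 0.444) and 0.23 for PKP2 (adjusted p = 0.314), and that of PKP1 from shRNA2 was -1.44 (adjusted p = 0.0973). Without library 3, all 8 members differed between shRNA2 and shRNA3, in a fit that called 59.2% of all tested genes. PKP1 was highest among the hairpin groups in all 3 shRNA3 libraries, at 1.64 CPM or more, while no shRNA1 or shRNA2 library exceeded 0.886 CPM.

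Levels of different genes were compared per kilobase of annotated exon. In NC, DSP (28.6 ± 3.19 CPM per kb, SD, n = 3), DSG2 (27.1 ± 2.96) and PKP3 (22.7 ± 1.60) came first, and neighbours in this order overlapped in range. PKP2 followed at 8.71 ± 0.239, then DSG3 at 4.5 ± 0.396 and DSC3 at 4.46 ± 0.414, which overlapped, then PKP1 at 2.90 ± 0.103 and DSC2 at 0.777 ± 0.177, with DSC1 and DSG1 last. With shRNA1, DSP (80.1 ± 7.11) and PKP3 (73.1 ± 8.55) overlapped and stood clear of DSG2 at 32.5 ± 3.99. With shRNA2, PKP3 (103.7 ± 2.07) and DSP (97.0 ± 5.36) overlapped above DSG2 at 36.9 ± 2.94. With shRNA3, PKP3 (72.0 ± 19.8) and DSP (66.4 ± 12.6) overlapped above DSG2 at 28.2 ± 2.54. DSC3 sank from the level of DSG3 to that of DSC2 with shRNA1, where the values were 0.763 ± 0.0686 and 0.844 ± 0.119 with overlapping ranges.

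The make-up of each family was taken as its members' shares of the family's CPM per kb. DSC3 held 81.9% to 86.5% of the desmocollins in the NC libraries, 43.4% to 53.9% with shRNA1, 66.3% to 71.7% with shRNA2 and 57.7% to 74.4% with shRNA3. PKP1 held 8.13% to 8.97% of the plakophilins in NC and at most 1% in any shRNA library. PKP3 per kb was 7.22 to 8.14 times PKP1 in NC, 837 to 1777 times with shRNA1, 720.2 to 1607 times with shRNA2 and 76.3 to 359.5 times with shRNA3. With shRNA1 and shRNA2 these ratios are rough, as they rest on 5 to 16 PKP1 counts per library. DSG2 was the main desmoglein in every library, at 84.4% to 87.3% in NC, 85% to 89.6% with shRNA1, 87.6% to 88.8% with shRNA2 and 76.1% to 82.8% with shRNA3. DSG3 held 12.7% to 15.6% of the desmogleins in NC, 10.3% to 14.9% with shRNA1, 11.2% to 12.3% with shRNA2 and 17.1% to 23.8% with shRNA3. For both genes the shRNA2 and shRNA3 libraries lay outside the NC range, on opposite sides of it, while shRNA1 and NC overlapped. Exon lengths are 12495 bases for DSC2 and 7056 for DSC3, so shares rest on the annotated models, in which rarely used exons count in full.

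**Figure D3:**
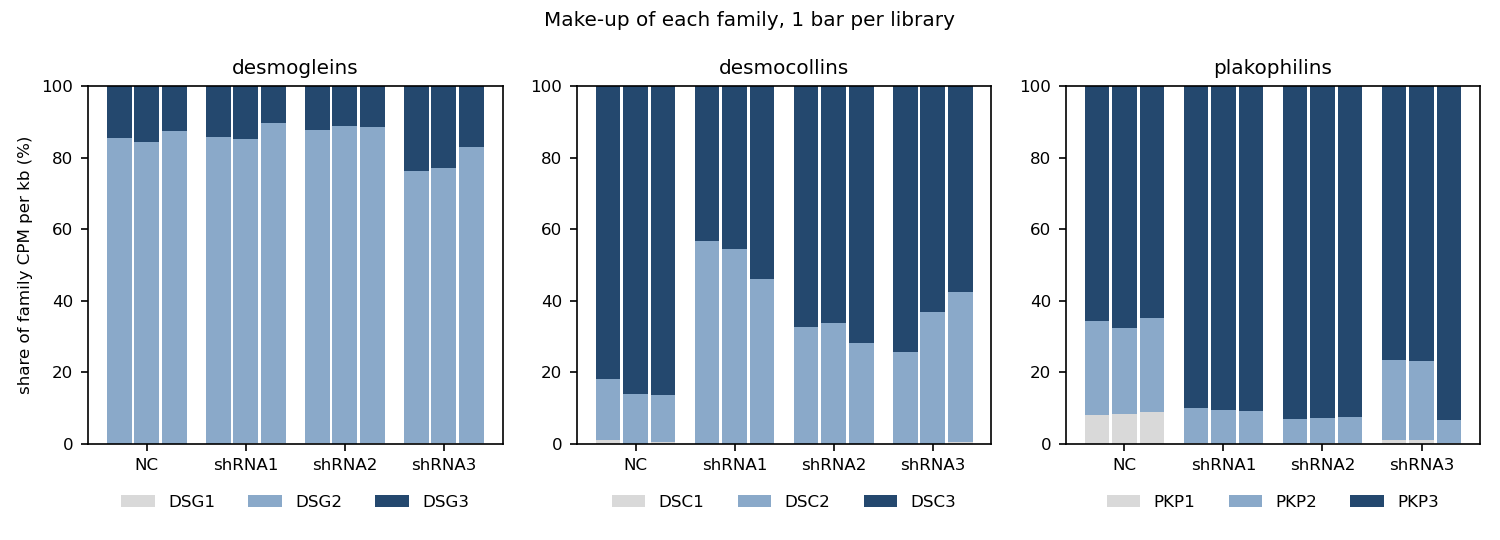
Share (%) of each member in the CPM per kb of its family, with 1 bar per library and bars grouped as NC, shRNA1, shRNA2 and shRNA3. The DSC3 part shrank from 81.9% or more in NC to 74.4% or less in all shRNA libraries, and PKP1 from 8.13% or more to 1% or less.

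Other genes of the desmosome were taken as a list of 6. DSG4, a desmoglein of hair and upper layers, had at most 2 counts and was not tested. PERP, a membrane protein of desmosomes in stratified epithelium, rose with all 3 shRNAs, from 294 ± 15 CPM (SD, n = 3) in NC to 432 ± 35.5, 596 ± 8.95 and 597 ± 13.2 (log2 changes 0.55, 1.02 and 1.02). PPL, the plaque protein periplakin, fell with shRNA1 (log2 change -1.47, adjusted p = 2.79e-05) and shRNA2 (-0.66, adjusted p = 0.00583), and read -0.39 with shRNA3 (adjusted p = 0.0646). PKP4, a plakophilin relative also found at adherens junctions, fell with shRNA1 (-1.19, adjusted p = 0.000329) and shRNA2 (-0.63, adjusted p = 0.016), and read -0.40 with shRNA3 (adjusted p = 0.102). With plain library totals both shRNA3 values were called, at -0.72 for PPL (adjusted p = 0.00839) and -0.78 for PKP4 (adjusted p = 0.000744). All 9 shRNA libraries were below NC for both genes, as they were for 25.8% of all tested genes.

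JUP, which encodes plakoglobin, the partner of both cadherin families, rose with shRNA3 by a log2 change of 1.62 (adjusted p = 0.00131). Its level was 532, 503 and 479 CPM in NC and 2058, 1916 and 685 in shRNA3 libraries 1, 2 and 3. With library 3 alone standing for shRNA3 the log2 change was 0.47 (adjusted p = 0.00992). With shRNA1 it read -0.31 (adjusted p = 0.427) and with shRNA2 0.53 (adjusted p = 0.174). In analyses without shRNA3 library 3, those became -0.30 (adjusted p = 0.012) and 0.54 (adjusted p = 0.000145). EVPL, envoplakin, rose with shRNA3 (0.64, adjusted p = 0.0029), a call lost with plain library totals (0.29, adjusted p = 0.124), and read 0.28 with each of the others. Of the 5 tested, 1 rose with all 3 shRNAs and none fell with all 3, where 16% of all tested genes rose and 19.7% fell. Their median log2 change for the mean of the shRNAs was 0.40, against -0.03 over all tested genes.

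Of the 9 hemidesmosome genes, which anchor keratin to the basement membrane, 1 rose with all 3 shRNAs and none fell with all 3. It was PLEC, the plectin that links keratin to integrins (745 ± 76.4 CPM in NC; log2 changes 1.95, 1.24 and 1.47). Of the 9 adherens junction genes, 2 rose and 2 fell with all 3. Beside both lists, 16% of all tested genes rose and 19.7% fell with all 3. CDH1, which encodes E-cadherin, fell from 323 ± 12.7 CPM (SD, n = 3) to 38.2 ± 2.87, 53.4 ± 2.35 and 66.1 ± 19.0 (log2 changes -3.08, -2.59 and -2.29). CDH3, which encodes P-cadherin, fell as well (-1.90, -1.84 and -0.98), while NECTIN1 rose (2.18, 2.77 and 2.93). CTNNB1, which encodes β-catenin, also rose (1.20, 1.06 and 1.06) and is named after its values were seen. Median log2 changes for the mean of the 3 shRNAs were 0.44 and -0.22 for these lists.

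Keratins are the filaments that desmoplakin holds. Of 15 listed, 14 were tested, and 10 rose and 1 fell with all 3 shRNAs (16% and 19.7% of all tested genes). Their median log2 change was 1.61 for the mean of the shRNAs. KRT5, a basal keratin named here after its values were seen, was the one that fell, from 1009 ± 42.4 CPM (SD, n = 3) to 21.4 ± 6.71, 80.2 ± 2.47 and 74.9 ± 22. KRT13, the keratin of internal stratified epithelium, read at most 0.202 CPM in NC and 380.2 CPM or more in every shRNA library. KRT19, a simple-type keratin, went from 0.838 ± 0.220 CPM to 276 ± 41.5, 954 ± 33.1 and 519 ± 59.0. KRT7, another simple-type keratin, went from 13.3 ± 2.79 CPM to 1876 ± 325, 2176 ± 82.4 and 1222 ± 771.

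**Figure D4:**
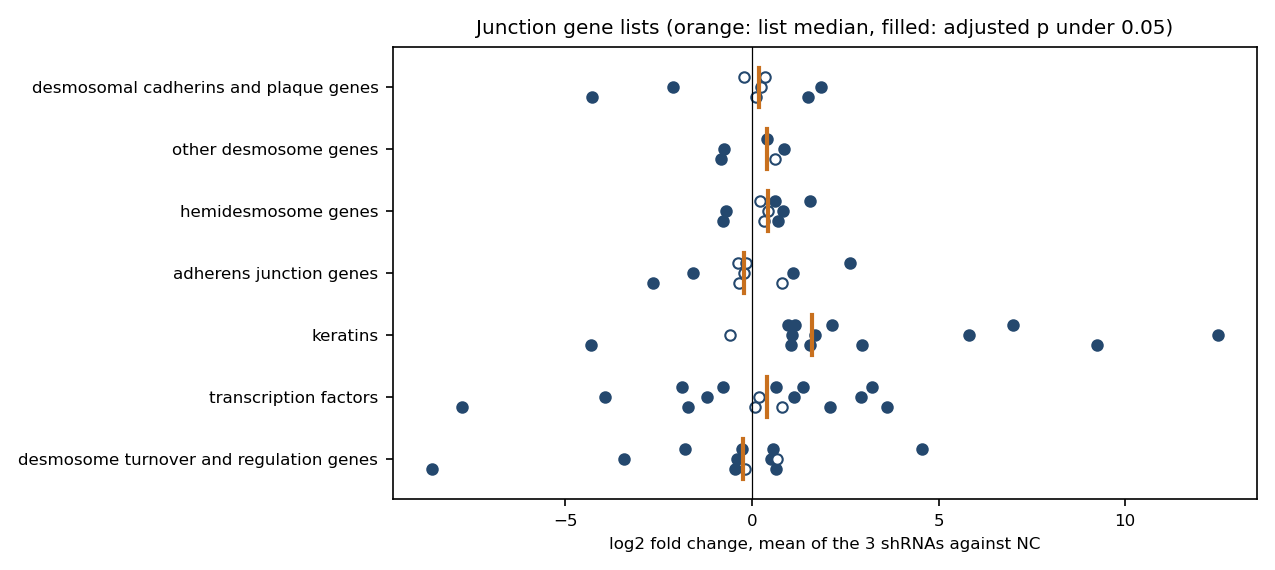
Mean log2 fold change over the 3 shRNAs relative to NC (horizontal axis) for each tested gene in the junction lists. Filled points have an adjusted p under 0.05 and orange bars are list medians. The 8 desmosomal cadherin and plaque genes had a median of 0.18 with genes on both sides, while the keratins had a median of 1.61.

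Among 16 listed regulators of epithelial junction genes, 4 rose and 3 fell with all 3 shRNAs (16% and 19.7% of all tested genes). All are transcription factors except ESRP1, a splicing regulator, and the median log2 change was 0.41 for the mean. GRHL2, a grainyhead factor of epithelial identity, fell from 35.6 ± 1.10 CPM (SD, n = 3) in NC to 0.844 CPM or less in every shRNA library. OVOL1, a repressor of mesenchymal genes, fell from 5.96 ± 0.905 CPM to 0.0984 ± 0.0826, 0.775 ± 0.341 and 0.668 ± 0.594. GRHL3, a grainyhead factor of differentiating layers, rose from 0.234 ± 0.115 CPM to 1.39 ± 0.551, 2.67 ± 0.691 and 6.90 ± 2.79. The others, named after their values were seen, were ZEB1, ZEB2 and KLF5, which rose, and ESRP1, which fell. ZEB1, which binds E-boxes, went from 0.485 ± 0.109 CPM to 7.78 ± 0.654, 4.37 ± 0.444 and 2.72 ± 1.34. SNAI1, the other E-box repressor named above, was called only with shRNA3 (log2 change 2.20, with a range of 0.13 to 2.67 over 19 alternatives). It read 1.13 with shRNA1 and 0.05 with shRNA2. Any link of these factors to the desmosomal genes was not tested.

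Of 13 genes of desmosome turnover and regulation, 12 were tested, and 3 rose and 3 fell with all 3 shRNAs. Over all tested genes 16% rose and 19.7% fell, and the list's median log2 change was -0.23 for the mean. KLK5, a kallikrein protease that cleaves desmosomal proteins of the outer epidermis, fell from 94.4 ± 3.88 CPM (SD, n = 3) to 1.41 CPM or less in every shRNA library. KLK7, a related protease, fell from 2.01 ± 0.0804 CPM to 0.519 CPM or less. SPINK5, which encodes an inhibitor of these proteases, rose from 0.601 ± 0.0429 CPM to 7.33 ± 2.86, 22.4 ± 1.78 and 18.1 ± 3.36. The others, named after their values were seen, were KLHL24, which fell (log2 changes -2.35, -2.23 and -0.79), and PPP2CA (0.76, 0.53 and 0.61) and ATP2A2 (0.55, 0.41 and 0.60), which rose. The KLHL24 call with shRNA3 held in 10 of 19 alternatives and the ATP2A2 call with shRNA2 in 13 of 19.

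Markers of other cell types were summed beside these results. Of 10 fibroblast and mesenchymal markers, 4 in NC, 4 with shRNA1, 7 with shRNA2 and 4 with shRNA3 were at or under 3 counts in every library, and the sum was 59.9 to 63.4 CPM in NC, 374 to 632 with shRNA1, 645 to 666 with shRNA2 and 512 to 899 with shRNA3. VIM, the filament protein of mesenchymal cells, made up most of that sum in the shRNA groups, at 3.26 ± 0.198 CPM (SD, n = 3) in NC and 445 ± 144, 609 ± 8.65 and 694 ± 187 with shRNA1, shRNA2 and shRNA3. COL3A1 was at or under 3 counts in all 4 groups, and COL1A2, LUM and PDGFRB were lower with every hairpin. The 5 endothelial markers summed to 17.8 to 23.4 CPM in NC and 3.88 to 13.4 CPM in shRNA libraries, with KDR at or under 3 counts in all groups. Members of that list went opposite ways: CDH5, most of the NC sum, fell from 17.3 ± 2.78 CPM to 1.94 ± 0.704, 2.53 ± 0.365 and 1.35 ± 1.2, while PECAM1 rose from 0.133 ± 0.0553 CPM to 2.6 ± 0.449, 4.76 ± 0.82 and 8.74 ± 0.838 (SD, n = 3). The 6 leukocyte markers summed to 5.10 to 12.1 CPM over all libraries. PTPRC was at or under 3 counts in NC and shRNA2, and CD3E in all shRNA groups. The 2 tested members of that list went opposite ways with all 3 shRNAs. CD14 fell from 4.17 ± 0.616 CPM to 0.808 ± 0.343, 1.85 ± 0.383 and 0.765 ± 0.372 (SD, n = 3). CSF1R rose from 2.97 ± 0.808 CPM to 6.56 ± 1.39, 6.97 ± 0.611 and 6.54 ± 3.27. The CD14 call with shRNA2 held in 13 of 19 alternatives, and the CSF1R calls in 16, 17 and 15. The part of other cells in the desmosomal results was not tested.

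The 6 cadherins lie in one cluster of 559 kb on chromosome 18 (chr18:30990008-31549008), with the desmocollins on the minus strand and the desmogleins on the plus strand. Within 1 Mb on either side 53 genes are annotated, of which 11 were tested, 4 of them members. DSC3, at one end, fell with all 3 shRNAs, whereas its neighbour DSC2 was called with none. Of the 7 other tested genes, RNF125, a ubiquitin ligase gene beyond the desmoglein end, rose with all 3 (log2 changes 3.67, 2.23 and 2.88, from 0.852 ± 0.128 CPM in NC). Beside these, 16% of all tested genes rose and 19.7% fell with all 3. RNF138 rose with shRNA1 (1.12, adjusted p = 0.00251), and GAREM1 fell with shRNA1 (-0.93, adjusted p = 0.0308) and shRNA3 (-1.22, adjusted p = 0.00934). The GAREM1 call with shRNA1 held in 11 of 19 alternatives, and that with shRNA3 was lost with library 3 alone (-0.48, adjusted p = 0.109). B4GALT6, TRAPPC8 and 2 antisense genes were not called with any shRNA.

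**Figure D5:**
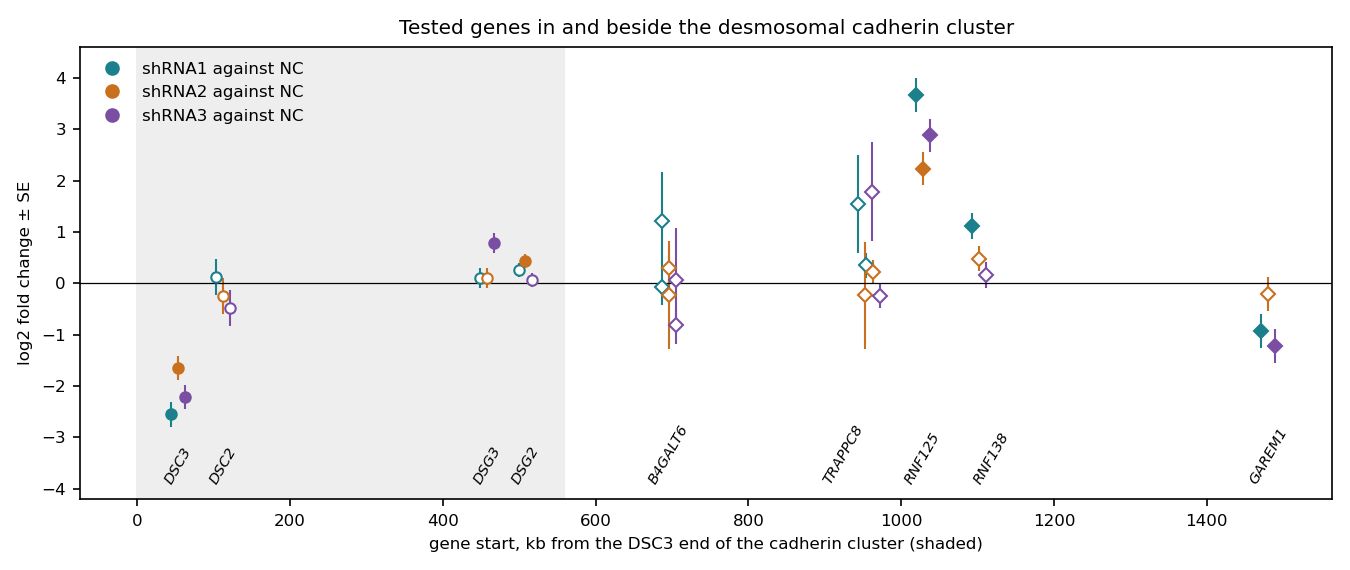
Log2 fold change ± SE (vertical axis) of the 11 tested genes in and around the cadherin cluster, against the distance of the gene's start from the DSC3 end of the cluster in kb. Circles are members, diamonds other genes (2 antisense genes are not labelled), and filled symbols have an adjusted p under 0.05. DSC3 and RNF125 were the only genes of the 11 called with all 3 shRNAs, in opposite directions. Over all tested genes 16% rose and 19.7% fell with all 3, so such calls are common in these data.

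Patterns over the 12 libraries were compared by the root mean square difference of log2(CPM + 1) after each gene's mean was subtracted, so that a small value means that the genes moved alike and by like amounts. Among the 28 pairs of tested members, PKP3 and DSP were the closest, at 0.217, followed by DSG3 and PKP2 at 0.255. PKP3 and PKP1 were the farthest apart, at 2.34. DSC2 and DSC3 differed by 0.916 and DSG2 and DSG3 by 0.430. These values describe 12 libraries in 4 groups and carry no test.

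Outside the set, 14892 genes were compared in the same way with DSP and with the desmoglein and the desmocollin of the highest mean CPM over the 12 libraries, DSG2 and DSC3. Nearest to DSP were PDCD6IP at 0.0987, ARHGAP32 at 0.109 and GALNT7 at 0.117, where DSP's own spread about its mean was 0.686. PDCD6IP went from 62.8 CPM in NC to 195, 205 and 158 CPM with shRNA1, shRNA2 and shRNA3. Nearest to DSC3 (own spread 0.928) were IFT80 at 0.162, CCDC113 at 0.174 and STYXL1 at 0.201. IFT80 went from 56.7 CPM to 11.4, 19.1 and 13.8. Nearest to DSG2 (own spread 0.211) were KSR1 at 0.0931, ECT2 at 0.0939 and MDFIC at 0.107.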

How the data were processed

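RNA-seq of SCC-15 used total RNA, an NEBNext Ultra RNA kit and Illumina sequencing, per the labels' protocols. The values are estimated counts per gene as deposited by the authors, of which 13.8% are not whole. The submitters' processing notes name HISAT2, HTSeq 0.11.2 and GRCh38, without roles. The annotation, the filters and the use of strand are not given in the sources used here, so reads of overlapping or antisense genes may not be told apart.

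Counts were rounded and fitted with edgeR 4.0.16 in R 4.3.3 (TMM, filterByExpr with a minimum count of 10 and total of 15, robust quasi-likelihood) in 1 model of 4 groups and 12 libraries, with 8 residual degrees of freedom and Benjamini-Hochberg adjustment over 17532 genes. A test of the script on simulated data used a smaller spread between libraries and far fewer changed genes than these data have. It cannot show how the fit performs at their spread. Depth was 17286934 to 19567192 counts per library, and the floor of 3 counts covers counting error only. The 95% intervals of log2 changes come from the quasi-likelihood fit and include the spread between libraries. Positions and exon lengths came from GENCODE release 29. Pattern likeness used log2(CPM + 1) with a mean of at least 1 CPM.

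The members and gene lists were chosen with earlier results of these data known. Named were all members, all other desmosome genes, the tested genes within 1 Mb of the cadherin cluster, the 3 genes nearest in pattern to DSG2, DSC3 and DSP, and from each other list at most 3 genes called with all 3 shRNAs with the largest mean change. Same-numbered libraries of different groups did not deviate together (mean correlation -0.00434 over 18 pairs, against 0.00186 over 36 pairs of different numbers), so the main fit has no block. Alternatives were DESeq2 size factors, DESeq2 1.42.0 (Wald test), no filter, only the groups compared, a replicate block, leaving out each library, a minimum log2 change of 1 and, added after seeing the data, plain library totals. shRNA3 libraries 1 and 2 were also left out together.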

Additional observations from a re-analysis of the deposited data

How the results depend on the processing

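The number of members called against NC, 4, 5 and 5 with shRNA1, shRNA2 and shRNA3, ranged over the analyses that left out 1 library from 4 to 5, 4 to 5 and 5 to 7. The 5 with shRNA1 and the 7 with shRNA3 came without shRNA3 library 3, where 73.1% of all tested genes were called in both comparisons. For the mean of the 3 shRNAs the number ranged from 4 to 8, with 8 without shRNA3 library 3 (74.2% of all tested genes called in that fit). Between shRNA1 and shRNA2 the count of 1 became 0 with plain library totals, where 11.1% of all tested genes were called. There 1 member had an unadjusted p under 0.05. The count became 0 with no filter (2 unadjusted, 4.25% of genes called) and 0 with a minimum log2 change of 1. It was 2 with the DESeq2 Wald test (19.8%) and 3 of 7 tested members with only the groups compared (41%). It ranged from 0 to 3 with 1 library left out, in fits that called 3.06% to 39.7% of all tested genes. Between shRNA1 and shRNA3 the count of 3 became 0 with only the groups compared (2 unadjusted). That fit called 0 of all 15326 genes tested, so its 0 is not particular to the members. The count became 1 with a minimum log2 change of 1 and 2 with plain library totals (21.7% of all tested genes called). It ranged from 1 to 6 with 1 library left out, with 6 without shRNA3 library 3 (63.4%). Between shRNA2 and shRNA3 the count of 1 became 2 with DESeq2 size factors, where 9.42% of all tested genes were called. It became 5 with the DESeq2 Wald test (21.6%). With only the groups compared it was 0 (4 unadjusted), in a fit that called 0 of all 15116 genes tested. It ranged from 0 to 8 with 1 library left out, with 8 without shRNA3 library 3 (59.2%). With the replicate block the counts were 4, 5, 5 and 4 against NC and 1, 2 and 1 between shRNAs, and the PKP2 difference between shRNA1 and shRNA3 was lost (-0.81, adjusted p = 0.0722 by edgeR). That fit called 55.3%, 51%, 52% and 58.1% of all tested genes against NC and 8.54%, 25.4% and 2.16% between shRNAs. The direction reversed with plain library totals for DSG3 with shRNA2 (-0.02), DSG2 with shRNA3 (-0.28) and PKP2 in the mean (-0.10), and without NC library 2 for DSG2 with shRNA3, whose range over the analyses with 1 library left out was -0.04 to 0.16. Without shRNA3 libraries 1 and 2 it reversed for DSC2 with shRNA3 (0.28) and in the mean (0.06), and for PKP2 with shRNA3 (-0.41), in the mean (-0.23) and between shRNA1 and shRNA3 (0.23). The cause was not tested. Plain library totals moved the median log2 change of all genes to -0.10, -0.18 and -0.35 with shRNA1, shRNA2 and shRNA3, from -0.02, -0.05 and -0.03. Of 695 values of single members under alternatives, 629 kept their direction and side of the threshold. The mean of the 3 shRNAs needs all groups, so its fit on only the groups compared was not run. Depth limits DSG1 and DSC1, which had at most 10 and 5 counts in a library.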
